A study of Homo sapiens with 6 samples.

Results

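The clustered protocadherins are a family of cadherin-like cell surface proteins that lie in 3 neighbouring gene clusters on human chromosome 5, named alpha, beta and gamma. The genes were chosen by their symbols, and 53 of the 24726 probe sets on the array belonged to them: 15 of the alpha, 16 of the beta and 22 of the gamma cluster. All 53 carried the same symbol in RefSeq's gene table. The family was taken up because a stretch of neighbouring genes that begins inside the beta cluster had been seen to be higher in these same IR-A tumours. The differences between IR-A and control tumours are therefore given as a description, and no test of them is offered as support.

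The arrays measured 6 tumours that Huh7 cells, an established human hepatocellular carcinoma line, formed after injection under the skin of nude mice, which lack a thymus but keep other immune cells, vessels and connective tissue. The 3 IR-A tumours came from cells stably transfected with the plasmid pRcCMVi.hIR-A(GFP), which adds isoform A of the insulin receptor and a green fluorescent marker. The 3 control tumours came from cells with the empty vector. Cells of both kinds had been selected with G418 and by cytometry for fluorescence, and the labels give neither the age of the mice nor whether the cells were pools or single clones. No label says that the tumours came from separate cultures, so a p-value here reflects how far these 6 samples scatter, and part of that scatter may be technical. INSR, the insulin receptor gene, read 10.65, 11.31 and 11.01 on the log2 scale in IR-A tumours, against 8.04, 7.61 and 8.47 in control tumours, so the labelled groups did not overlap.

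Clustered protocadherins are known above all from neurons. There each cell transcribes a few members, and the proteins on neighbouring membranes bind only to their like, which lets a neuron tell its own branches from those of others. Each variable first exon has a promoter of its own. In the alpha and gamma clusters the first exon is spliced to constant exons shared by the whole cluster, which encode a common cytoplasmic tail, while each beta gene is a single exon with no constant part. Promoter choice is governed by DNA methylation and by loops that the factor CTCF and the cohesin ring form with distant enhancers. In many tumours the clusters are known as targets of long-range promoter methylation.

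Most of the promoters are known to share a short element whose core is CGCT, and stretches around CGCT are shown for some members. A match to CGCT alone does not show that a promoter carries the element. In PCDHGC4, for example, CGCT followed ggagc, and in PCDHB1 it followed tgagt. RefSeq sequences of build GRCh38.p14, which reach from 250 bases before to 50 bases after the annotated start, were found for 47 of the 53 genes. They were not found for PCDHA3, PCDHA13, PCDHB6, PCDHB11, PCDHGA12 and PCDHGC5. The lines below give 44 bases of the plus strand, 5′ to 3′, with CGCT in capitals. They cover only some of the promoters with a match, so they do not show how alike the rest are. PCDHGB5 had a second match, after cttgg, that is not printed.
PCDHA4 (chr5:140806975-140807018): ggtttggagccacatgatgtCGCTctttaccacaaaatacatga
PCDHA8 (chr5:140841126-140841169): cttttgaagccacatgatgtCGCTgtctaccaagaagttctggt
PCDHAC1 (chr5:140926216-140926259): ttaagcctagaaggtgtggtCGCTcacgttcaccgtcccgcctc
PCDHB2 (chr5:141094540-141094583): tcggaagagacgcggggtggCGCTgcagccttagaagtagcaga
PCDHB16 (chr5:141182306-141182349): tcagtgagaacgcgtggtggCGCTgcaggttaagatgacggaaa
PCDHB12 (chr5:141208639-141208682): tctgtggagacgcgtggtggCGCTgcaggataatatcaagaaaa
PCDHB13 (chr5:141213861-141213904): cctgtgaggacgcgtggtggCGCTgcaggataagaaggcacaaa
PCDHB15 (chr5:141245310-141245353): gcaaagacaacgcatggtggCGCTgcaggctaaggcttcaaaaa
PCDHGA2 (chr5:141338699-141338742): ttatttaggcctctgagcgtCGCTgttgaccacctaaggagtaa
PCDHGB5 (chr5:141397859-141397902): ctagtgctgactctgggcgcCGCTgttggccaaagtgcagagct
PCDHGA9 (chr5:141402710-141402753): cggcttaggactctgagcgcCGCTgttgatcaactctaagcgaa
PCDHGA11 (chr5:141420968-141421011): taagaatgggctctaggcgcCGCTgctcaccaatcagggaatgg
PCDHGC4 (chr5:141484948-141484991): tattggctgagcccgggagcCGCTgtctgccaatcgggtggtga

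CGCT on the strand of the gene, which is the plus strand for all members, starting 100 to 30 bases before the annotated start, was found in 43 of the 47 promoters (91.5%), against 21.1% of 27305 promoters at 1 per gene. On the other strand of the same stretch, it was found in 19.1% of the members and 21.2% of all promoters. In the 300 bases as a whole and on either strand, CGCT was in 97.9% of the members and 68.8% of all promoters, so the letters alone separate little and the place and strand separate more. The stretch of 100 to 30 bases was set after the sequences had been seen. PCDHA9, PCDHB5, PCDHB8 and PCDHGB2 had no such match in it. PCDHB5 and PCDHB8 each held 1 CGCT on the strand of the gene elsewhere in the 300 bases. The count of 43 may also include matches outside the shared element. In PCDHGB7 the only match followed gcaag. PCDHGB6 had 2 matches, of which the first followed ggcgc and the second gcaag. For PCDHGB2 the sequence used, chr5:141359886-141360185, was set on a later start than the gene's first base, 141359994. The stretch searched there lay inside the gene, so its missing match may depend on the start chosen.

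Some longer runs around the core were particular to a cluster among the members. Shorter ones were shared, such as ggtgt before the core in PCDHA11 and PCDHGA4. The run GATGTCGCT was in 9 of 13 alpha promoters and in none of the 14 beta or 20 gamma promoters. GGTGGCGCT was in 13 of 14 beta promoters, all but PCDHB1, and in none of the others, and GCGCCGCTG was in 10 of 20 gamma promoters and in none of the others. In all promoters these runs had shares of 0.114%, 0.524% and 1.24%. They were searched on both strands, were picked from the sequences, and each contains the core. The end of the CTCF consensus, a longer run that closes with GGCGCT and so contains the core, was in 4.26% of the members (PCDHB7 and PCDHB9, where it overlaps GGTGGCGCT) and 2.36% of all promoters.

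In IR-A tumours most beta and gamma protocadherins had more signal than in control tumours, and alpha protocadherins did not lean either way. The difference in log2 signal, IR-A minus control, was above 0 for 15 of 16 beta and 19 of 22 gamma genes, and for 6 of 15 alpha genes. The medians were 0.35 for beta, 0.29 for gamma and -0.02 for alpha, beside -0.03 over all probe sets. The largest differences were 0.89 for PCDHGB5, 0.88 for PCDHGB2, 0.84 for PCDHGA2, 0.80 for PCDHB13 and 0.79 for PCDHB16, which are ratios of 1.86, 1.84, 1.79, 1.74 and 1.73. Over all probe sets, 44.0% of differences were above 0.

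None of the 53 genes passed limma's test at an adjusted p of 0.05, and neither did any other probe set (0.0% of 24726). The smallest adjusted p in the family, from the limma fit, was 0.140, for PCDHGB2. At an unadjusted p under 0.05, 12 members were higher in IR-A tumours, where 7.1% of all probe sets were, and 1 was lower, where 7.03% were. IR-A and control values did not overlap for 12 members. In 11 of these (20.8%) every IR-A tumour lay above every control tumour, against a background of 7.73%, and in 1 every IR-A tumour lay below, against 9.45%. Since the family was picked on this contrast, these shares are set side by side and nothing is read from them.

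**Figure D1:**
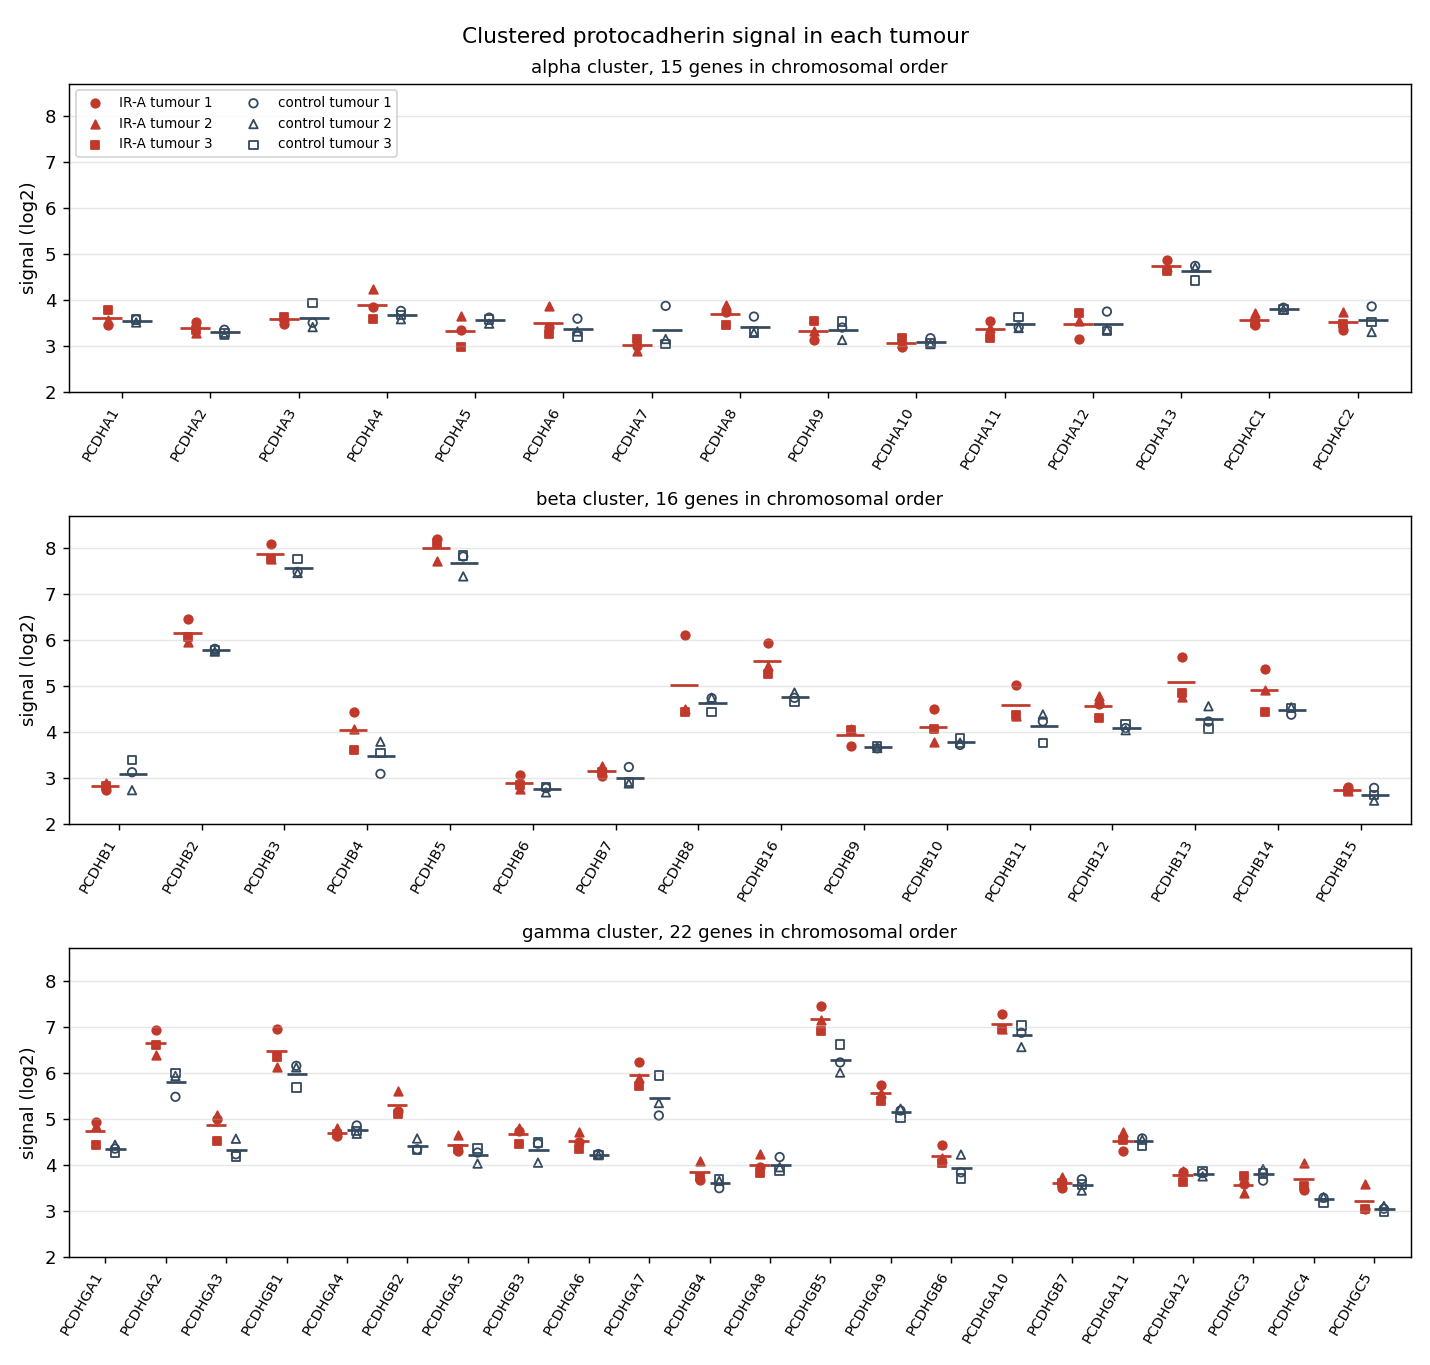
Log2 signal (vertical axis) of each clustered protocadherin in chromosomal order (horizontal axis), with filled red symbols for the 3 IR-A tumours, open dark symbols for the 3 control tumours and a line at each group's mean. Alpha members lie at similar levels in both groups, while for PCDHB16, PCDHB13, PCDHGA2, PCDHGB2 and PCDHGB5 all red symbols lie above all open ones.

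Brightness sets a limit on what could be seen. All 15 alpha probe sets were dimmer than the median probe set, whose mean over the 6 arrays was 4.71, and 5 of 16 beta and 8 of 22 gamma probe sets were brighter than it. Of the 53, 43 were brighter than the dimmest 25% of the array. A probe set's brightness depends on its probes as well as on its transcript, so brightness is not used here to rank the genes by abundance. RMA, the method behind these values, also compresses differences of dim probe sets. In bulk tumours, fewer cells with a transcript and less transcript per cell cannot be told apart.

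The C-type members sit at the downstream ends of the alpha and gamma clusters and are, in neurons, expressed more uniformly than the others. The 5 measured here were dim and went different ways. PCDHAC1 read 3.46, 3.71 and 3.50 in IR-A tumours and 3.83, 3.79 and 3.80 in control tumours, a difference of -0.25 (SE 0.10), with every IR-A value below every control value. PCDHGC4 read 3.45, 4.05 and 3.55 in IR-A tumours against 3.28, 3.29 and 3.17 in control tumours, a difference of 0.43 (SE 0.17), and its groups were apart the other way. IR-A tumour 2 gave the highest value of PCDHGC4, and without that tumour the difference was 0.25.

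PCDHGC3, the gamma isoform known, from work in mice, to dampen Wnt signalling through AXIN1, averaged 3.57 ± 0.18 in IR-A and 3.79 ± 0.13 in control tumours (SD, n = 3 each), and the groups overlapped. PCDHGC5 read 3.04, 3.59 and 3.04 in IR-A tumours against 3.04, 3.10 and 2.97 in control tumours. Its difference of 0.18 rested on IR-A tumour 2, and without it the difference was -0.0005. PCDHAC2 averaged 3.52 ± 0.20 in IR-A and 3.56 ± 0.28 in control tumours (SD, n = 3 each), with overlapping values.

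The other 13 alpha genes encode variable domains joined to the alpha tail, and their differences ran from -0.34 to 0.28. For none of them were the groups apart. PCDHA8 had the largest positive difference, 0.28 (SE 0.15), with 3.74, 3.88 and 3.46 in IR-A tumours against 3.64, 3.28 and 3.31 in control tumours. PCDHA4 followed with 3.84, 4.23 and 3.59 in IR-A tumours against 3.76, 3.58 and 3.67 in control tumours. In both genes 1 of the IR-A tumours lay inside the range of the controls.

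On the other side, PCDHA7 averaged 3.01 ± 0.13 in IR-A and 3.35 ± 0.45 in control tumours (SD, n = 3 each). Control tumour 1 alone read 3.87 there, and without it the difference of -0.34 was -0.08. PCDHA5 had a difference of -0.24 (SE 0.18), with IR-A tumour 3 lowest at 2.97, and without that tumour it was -0.06. PCDHA13 was the brightest alpha probe set and PCDHA4 the next. PCDHA13 averaged 4.73 ± 0.12 in IR-A and 4.62 ± 0.17 in control tumours (SD, n = 3 each). PCDHA6 and PCDHA11, at 0.14 and -0.10, complete the alpha genes of largest difference.

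Control tumour 1 was the highest control for 12 of 15 alpha genes and control tumour 2 the lowest for 11. Over all probe sets control tumour 1 was highest in 32.3% and control tumour 2 lowest in 41.9%. Of the 15 alpha genes, 8 kept the sign of their difference when each tumour was left out in turn. The median of the cluster lay between -0.07 and 0.07 over the left-out tumours.

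The beta genes are single exons that encode an extracellular part, a membrane span and a short tail of their own. PCDHB16 read 5.93, 5.44 and 5.28 in IR-A tumours against 4.75, 4.86 and 4.67 in control tumours, a difference of 0.79 (SE 0.18). PCDHB13 read 5.64, 4.77 and 4.85 in IR-A tumours against 4.23, 4.57 and 4.08 in control tumours, a difference of 0.80 (SE 0.26). In both, every IR-A tumour lay above every control tumour, and IR-A tumour 1 stood highest.

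PCDHB12 read 4.62, 4.79 and 4.32 in IR-A tumours against 4.09, 4.05 and 4.17 in control tumours, a difference of 0.47 (SE 0.14). PCDHB2, named after its values were seen, read 6.46, 5.97 and 6.08 in IR-A tumours against 5.81, 5.75 and 5.79 in control tumours. These 2 with PCDHB16 and PCDHB13 were the 4 of 16 beta genes whose groups were apart, beside 7.73% of all probe sets apart in this direction. PCDHB4 had a difference of 0.57 (SE 0.26), but IR-A tumour 3, at 3.62, lay inside the control range of 3.10 to 3.80.

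PCDHB5 and PCDHB3 were the brightest probe sets of the family. PCDHB5 averaged 8.01 ± 0.25 in IR-A and 7.68 ± 0.26 in control tumours (SD, n = 3 each). PCDHB3 averaged 7.88 ± 0.19 in IR-A and 7.57 ± 0.17 in control tumours (SD, n = 3 each). Their differences of 0.33 and 0.31 were near the cluster's median, and their groups overlapped. PCDHB1, the first gene of the cluster, was the only beta gene with a negative difference, -0.26 (SE 0.17), at 2.83 ± 0.08 in IR-A and 3.09 ± 0.33 in control tumours (SD, n = 3 each). PCDHB6, PCDHB7 and PCDHB15 were as dim and had differences of 0.13, 0.13 and 0.11.

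Within the IR-A tumours, the beta signal was uneven. IR-A tumour 1 was the highest IR-A tumour for 12 of 16 beta genes, where it was so for 29.4% of all probe sets, and it exceeded all 3 controls in 13, as it did in 22.5% of all probe sets. IR-A tumours 2 and 3 exceeded all controls in 8 beta genes each, against 22.8% and 21.3% of all probe sets. Without IR-A tumour 1 the median difference of the cluster was 0.22. PCDHB8, named for this after its values were seen, read 6.11 in IR-A tumour 1 and 4.51 and 4.44 in the other IR-A tumours, against 4.74, 4.75 and 4.45 in control tumours. Its difference of 0.37 was -0.17 without IR-A tumour 1. The other 15 beta genes kept the sign of their difference whichever tumour was left out.

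**Figure D2:**
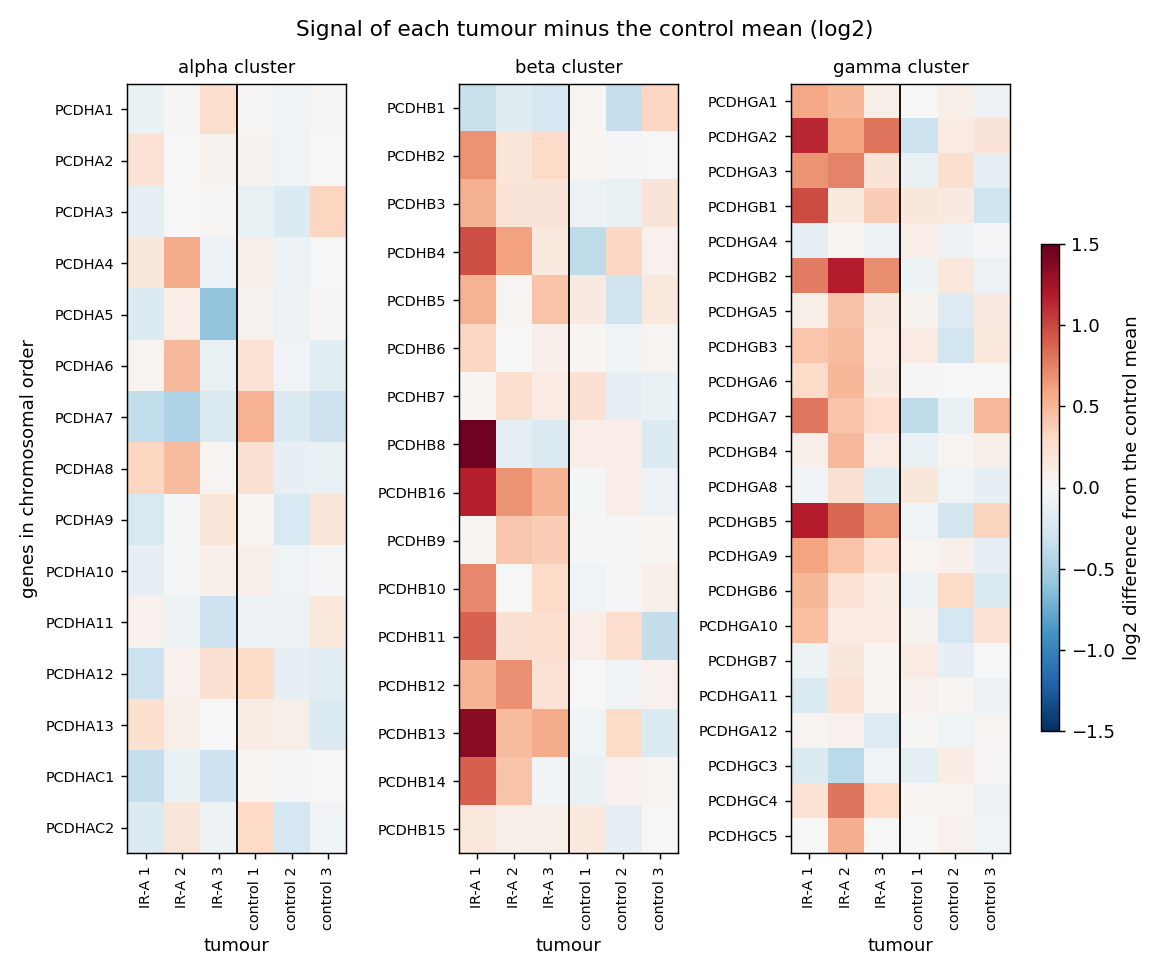
Colour gives each tumour's log2 signal minus the control mean of the same gene, with IR-A tumours left and control tumours right of the black line and genes in chromosomal order downwards. In the beta cluster the column of IR-A tumour 1 is the darkest red, most of all at PCDHB8, and in the gamma cluster the red spreads over IR-A tumours 1 and 2 and fades from PCDHGB7 on, apart from IR-A tumour 2 at PCDHGC4 and PCDHGC5.

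The mean signal over the 16 beta genes was 4.99, 4.61 and 4.56 in IR-A tumours, against 4.37, 4.36 and 4.37 in control tumours. The controls were close together, with an SD of 0.0052, and the IR-A tumours were spread, with an SD of 0.23. Over the 22 gamma genes the mean was 4.89, 4.92 and 4.70 in IR-A tumours, against 4.51, 4.52 and 4.54 in control tumours. IR-A means lay above control means in both clusters. Over the 15 alpha genes it was 3.48, 3.63 and 3.49 in IR-A tumours, against 3.67, 3.45 and 3.53 in control tumours, which overlap.

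The gamma genes fall into subfamilies A and B, which alternate along the chromosome, and the C-type genes at the end. PCDHGB5 read 7.46, 7.14 and 6.92 in IR-A tumours against 6.22, 6.002 and 6.61 in control tumours, a difference of 0.89 (SE 0.20). PCDHGB2 read 5.17, 5.59 and 5.10 in IR-A tumours against 4.33, 4.57 and 4.32 in control tumours, a difference of 0.88 (SE 0.16). PCDHGA2 read 6.93, 6.39 and 6.61 in IR-A tumours against 5.48, 5.93 and 5.998 in control tumours, a difference of 0.84 (SE 0.19). In all 3 genes every IR-A tumour lay above every control tumour, and the differences stayed between 0.68 and 1.06 whichever tumour was left out.

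PCDHGA3 had a difference of 0.54 (SE 0.18), and its IR-A tumour 3, at 4.52, lay just under control tumour 2, at 4.56. PCDHGA1, PCDHGA6 and PCDHGA9, named after their values were seen, had smaller differences of 0.39, 0.31 and 0.42, with groups apart. With PCDHGC4 these brought the gamma genes whose groups were apart to 7 of 22 (31.8%, beside 7.73% of all probe sets). PCDHGA10, the brightest gamma probe set, averaged 7.05 ± 0.19 in IR-A and 6.82 ± 0.24 in control tumours (SD, n = 3 each), and its groups overlapped.

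By subfamily, the difference was above 0 for 10 of 12 gamma-A genes, with a median of 0.27, and for 7 of 7 gamma-B genes, with a median of 0.33. Among the 12 gamma-A genes, PCDHGA4 and PCDHGA12 were below 0. PCDHGA4 averaged 4.69 ± 0.09 in IR-A and 4.75 ± 0.09 in control tumours (SD, n = 3 each), although its neighbours PCDHGB1 and PCDHGB2 had differences of 0.50 and 0.88. PCDHGA12 averaged 3.78 ± 0.14 in IR-A and 3.80 ± 0.05 in control tumours (SD, n = 3 each).

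Along the chromosome the differences were not even. PCDHB2 to PCDHB15 were all above 0, and so were the gamma genes from PCDHGA1 to PCDHGA11 with PCDHGA4 as the exception. PCDHGA8, in the middle of the cluster, differed by only 0.0010. The last 6 members, from PCDHGB7 through PCDHGA11, PCDHGA12 and PCDHGC3 to PCDHGC4 and PCDHGC5, had differences of 0.05, 0.01, -0.03, -0.22, 0.43 and 0.18. For the 7 other genes measured inside the same stretch, IR-A and control values overlapped. TAF7, a subunit of the general transcription factor TFIID that lies between the beta and gamma clusters, differed by 0.19 (SE 0.29), and SLC25A2, a mitochondrial ornithine carrier next to it, by -0.17 (SE 0.21). The pseudogenes PCDHB17P, PCDHB18P, PCDHB19P and PCDHGB8P differed by -0.01, -0.07, -0.11 and 0.14, and the antisense gene PCDHB1-AS1 by -0.04.

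**Figure D3:**
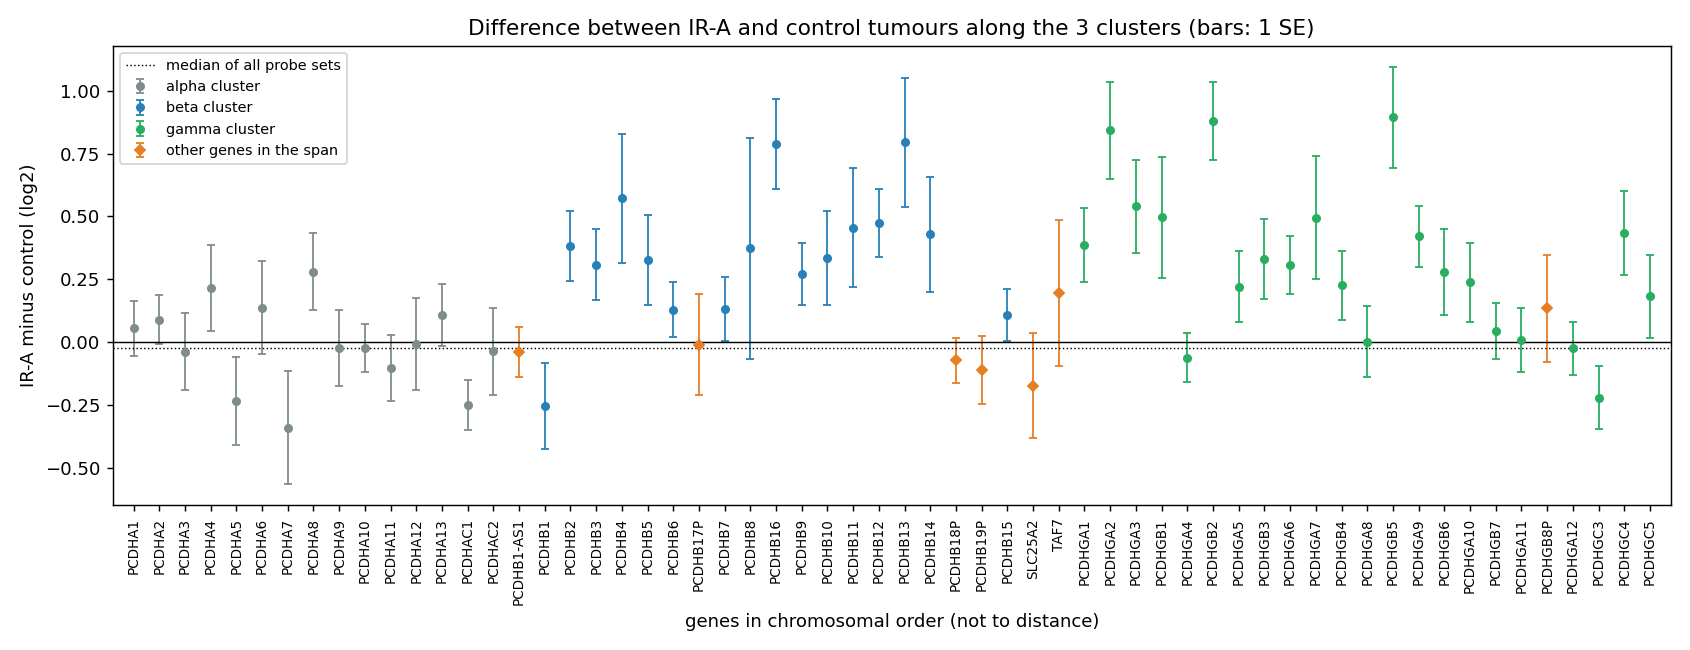
Difference in log2 signal, IR-A minus control (vertical axis, bars 1 SE), for the 53 clustered protocadherins and the 7 other genes of the array inside the same span, in chromosomal order without distances. Beta and gamma genes lie mostly above 0, up to 0.89 at PCDHGB5, and alpha genes and the other genes lie around 0.

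Alpha and gamma members share constant exons, so probes placed there would read several members at once. Over the 6 arrays the median correlation between members was 0.08 within alpha (105 pairs), 0.56 within beta (120 pairs) and 0.43 within gamma (231 pairs), and it was 0.37 between beta and gamma (352 pairs). After each group's mean was taken away, these medians were 0.13, 0.31, 0.17 and 0.07. The points of each pair are the same 6 arrays, and the medians over the 6 arrays contain the difference between the groups that the family was picked for. The probe sequences were not analysed here, so reading of one member's transcript by another member's probes was not tested.

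Brighter members had larger differences within the family. Across the 53 genes the correlation of mean signal with difference was 0.56, and within clusters it was 0.36 for beta, 0.58 for gamma and 0.33 for alpha, while over all probe sets it was 0.06. These are correlations across genes of the same 6 arrays and not across replicates. Of the 13 beta and gamma genes brighter than the median probe set, 12 were above 0, with a median of 0.42. Of the 25 dimmer ones 22 were above 0, with a median of 0.27.

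**Figure D4:**
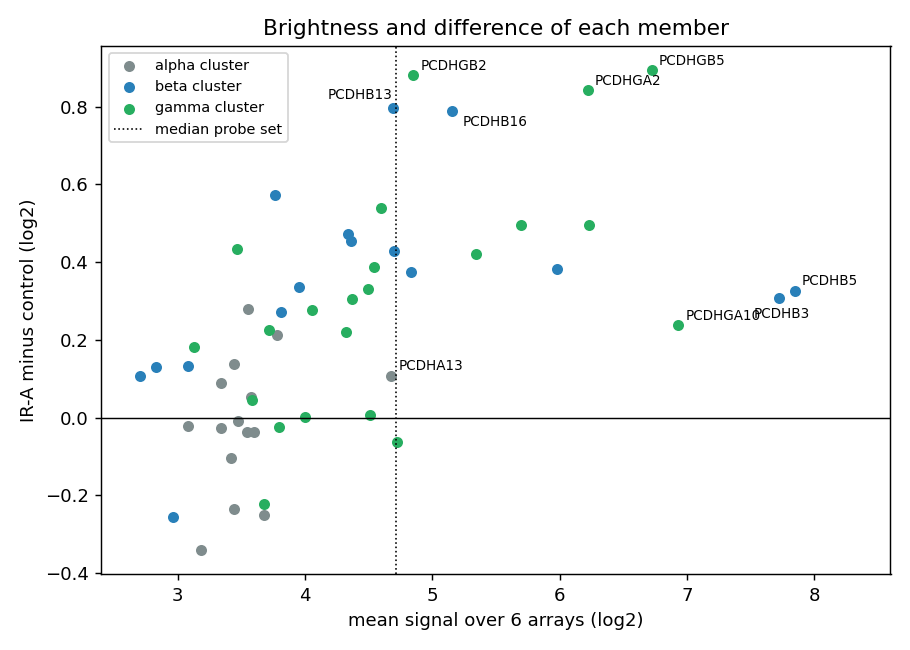
Mean log2 signal over the 6 arrays (horizontal axis) and difference in log2 signal, IR-A minus control (vertical axis), for each member, coloured by cluster, with the median probe set (4.71) as a dotted line. The alpha genes crowd at the dim side around 0, and the brightest members, PCDHB3, PCDHB5 and PCDHGA10, have differences of 0.24 to 0.33, below those of PCDHGB5 and PCDHGA2.

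The protocadherins outside the clusters are single genes on several chromosomes, with cytoplasmic tails unlike those of the clustered ones. PCDH1 and PCDH12 lie on chromosome 5, beyond the end of the gamma cluster, and were not in the list of neighbouring genes. All 12 listed were measured, and 0 passed limma's test, with 2 higher and 0 lower at an unadjusted p under 0.05, beside 7.1% and 7.03% of all probe sets. Their median difference was 0.01, with 7 above 0, and it was 0.85 over the 2 genes left without the dimmest 50% of probe sets. PCDH20 averaged 5.24 ± 0.12 in IR-A and 4.53 ± 0.44 in control tumours (SD, n = 3 each), a difference of 0.71 (adjusted p = 0.242 in limma). Its adjusted p in limma was 0.0364 without control tumour 2, when 308 of 24726 probe sets were called, and 0.388 to 0.585 without each of the other tumours. PCDH17 read 8.41, 9.15 and 7.85 in IR-A tumours against 8.01, 7.31 and 7.10 in control tumours, a difference of 1.00 (adjusted p = 0.308). PCDH11X, on the X chromosome, was among the dimmest probe sets and differed by 0.17 (adjusted p = 0.431).

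Genes whose products shape the clusters' chromatin were measured in full, 25 of 25, and had a median difference of -0.03, with 12 above 0. None passed limma's test, and 2 were higher and 1 lower at an unadjusted p under 0.05, beside 7.1% and 7.03% of all probe sets. EHMT2, a histone H3 lysine methyltransferase, averaged 6.83 ± 0.25 in IR-A and 7.31 ± 0.21 in control tumours (SD, n = 3 each), a difference of -0.48 (adjusted p = 0.284 in limma). REST, the repressor of neuronal genes, differed by 0.27 (adjusted p = 0.333), and TET2, an enzyme that oxidises methylated cytosine, by 0.41 (adjusted p = 0.334). CTCF read 9.01, 9.09 and 9.01 in IR-A tumours against 9.23, 9.15 and 9.08 in control tumours, with overlapping groups, and the cohesin subunit RAD21 differed by 0.07 (SE 0.12).

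Of 22 partners in signalling and processing, 19 were measured, with a median difference of -0.01. None passed, and 3 were higher and 0 lower at an unadjusted p under 0.05, beside 7.1% and 7.03% of all probe sets. ADAM10, the protease that sheds the extracellular part of protocadherins, averaged 9.82 ± 0.03 in IR-A and 9.40 ± 0.26 in control tumours (SD, n = 3 each), a difference of 0.42 (adjusted p = 0.269 in limma). NCSTN, a subunit of the gamma-secretase that cuts the remaining stub, differed by 0.32 (adjusted p = 0.340), and CYFIP2, of the WAVE actin regulatory complex, by 0.31 (adjusted p = 0.347).

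The 24 genes listed as neighbours of the clusters on chromosome 5 had a median difference of 0.05, with 13 above 0. None passed, and 1 was higher and 1 lower at an unadjusted p under 0.05, beside 7.1% and 7.03% of all probe sets. HDAC3, a histone deacetylase, averaged 8.37 ± 0.08 in IR-A and 7.79 ± 0.33 in control tumours (SD, n = 3 each), a difference of 0.58 (adjusted p = 0.229 in limma). IK, a splicing factor, differed by -0.29 (adjusted p = 0.339) and SPRY4, a feedback inhibitor of ERK signalling, by -0.42 (adjusted p = 0.355). The differences between these 4 lists and the 3 clusters were not tested.

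**Figure D5:**
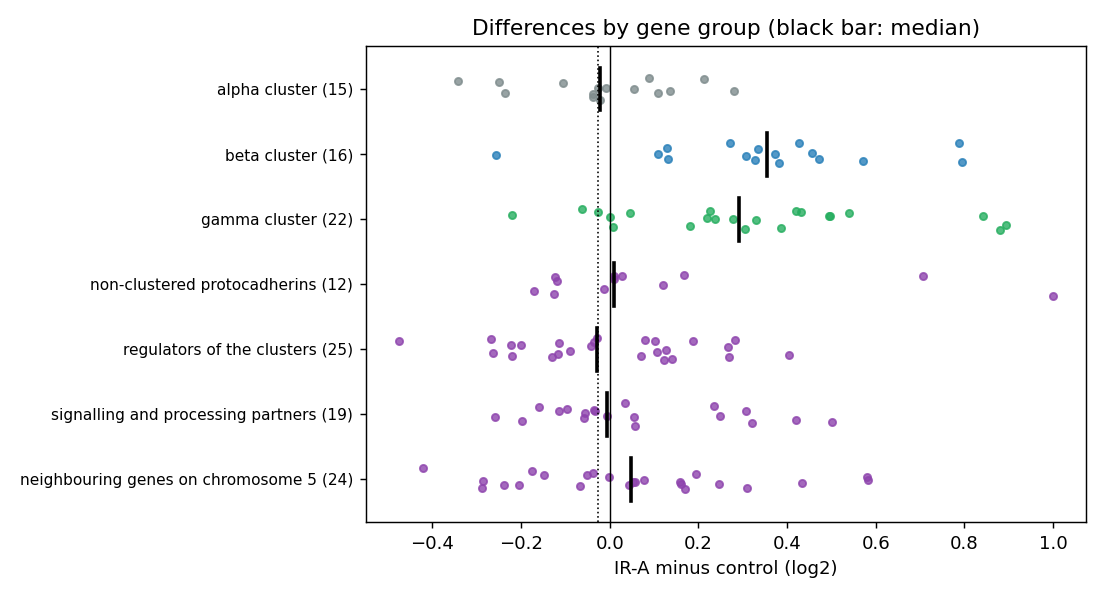
Difference in log2 signal, IR-A minus control (horizontal axis), for each gene of the 3 clusters and of 4 lists of other genes, with the number of genes in parentheses, a black bar at each median, a solid line at 0 and a dotted line at the median of all probe sets. The beta and gamma medians, 0.35 and 0.29, lie to the right of 0, and the other medians run from -0.03 to 0.05. Points are spread vertically only so that they can be seen.

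The tumours carried the liver transcripts of Huh7 at high signal. The mean over 9 measured hepatocyte markers, such as ALB and AFP, was 12.11 to 12.24 in IR-A and 11.83 to 12.04 in control tumours. The difference was above 0 for 8 of the 9, with a median of 0.23. APOB, TF, FGB and APOA1 were apart towards IR-A tumours (44.4%, beside 7.73% of all probe sets). Because protocadherins are known from nervous tissue, markers of neurons and of Schwann cells and glia were read as well. The mean over 11 of 12 neuron markers was 4.33 to 4.45 in IR-A and 4.27 to 4.42 in control tumours. The difference was above 0 for 6 of the 11, with a median of 0.03. SYT1, SNAP25 and GAP43 were apart towards IR-A tumours, beside 7.73% of all probe sets, with differences of 0.42, 0.30 and 0.20, and the other 8 overlapped. RBFOX3, ELAVL3, NEFM, ELAVL4 and SYP had differences of -0.34, -0.21, -0.12, -0.12 and -0.02.

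Over 5 of 8 Schwann cell and glia markers, the mean was 4.31 to 4.55 in IR-A and 4.42 to 4.72 in control tumours. All 5 differences were below 0, with a median of -0.06. NGFR, at -0.44, was apart towards control tumours, beside 9.45% of all probe sets. Host cell markers lay at 4.58 to 4.67 in IR-A and 4.24 to 4.56 in control tumours for fibroblasts (10 of 10 measured), and at 4.98 to 5.12 in IR-A and 4.65 to 4.91 in control tumours for macrophages (8 of 8). For endothelial cells (8 of 8) they lay at 3.996 to 4.03 in IR-A and 3.95 to 4.15 in control tumours. Among endothelial markers 2 of 8 were above 0, with a median of -0.06, and PECAM1, at 0.51, was apart towards IR-A tumours, beside 7.73%. The hepatocyte, fibroblast and macrophage means of every IR-A tumour thus lay above those of every control tumour, but the members of the last 2 lists did not go one way. Among macrophage markers 3 of 8 were above 0, with a median of -0.01, and the mean followed TYROBP and CD68, at 1.78 and 0.62, while CD14 and PTPRC differed by -0.24 and -0.07. Among fibroblast markers 7 of 10 were above 0, with a median of 0.11. LUM, COL1A2 and COL1A1 differed by 1.26, 0.83 and 0.40 and were apart towards IR-A tumours, beside 7.73% of all probe sets. FAP differed by -0.08 and was apart the other way, beside 9.45%. PDGFRA differed by -0.87 with overlapping groups, and control tumour 1 read 7.86 there against 6.31 and 5.43 in the other controls. The part of these markers in the protocadherin signal was not tested. How far RNA of the mouse host reaches these human probes was not tested.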

How the data were processed

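Total RNA of 6 tumours was measured on Affymetrix arrays, 1 per tumour. The authors deposited a log2 signal for each probe set in each tumour. The submitters' processing notes name RMA and Partek and give no version. For the genome build and the probe design, the entry is "not given in the sources used here", and the log2 scale was read from the values. GEO's probe annotation named 23934 of 24726 probe sets with 1 gene. No file gives background, so whether dim probe sets such as those of the alpha cluster were detected is not known. Precision is limited by the number of arrays, and an exact permutation test of 3 against 3 cannot go below p = 0.1.

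IR-A and control tumours were compared with limma 3.58.1 in R 4.3.3 over all probe sets, without a filter, with Benjamini-Hochberg adjustment. The fit was tested on simulated data first. There it called 63.2% of probe sets given a log2 difference of 1 and 94.4% of those given 2. The simulated noise was independent between probe sets, so these shares need not hold for the real arrays. There INSR differed by 2.95 and was not called (adjusted p = 0.0769 in limma). The largest difference in the family, 0.89, was smaller than 1, so a missing call says little about such differences. Promoters were searched in Python 3.11.15, and figures were drawn with matplotlib 3.10.9. Shared protein ends were not analysed here. The members, the gene lists and the settings were chosen with earlier results of these data known. Named members are the C-type genes and, per cluster, the 4 of largest difference in each direction and the 2 brightest. Of each other list the 3 genes of smallest p are named. Others are stated as named after their values were seen, or are named only for their place or function. The alternatives were other normalizations, filters on dim probe sets, other moderation, weights per array, a fit blocked on the replicate number, and fits without each tumour in turn.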

Additional observations from a re-analysis of the deposited data

How the results depend on the processing

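None of the 53 clustered protocadherins was called in any of the 14 alternatives. Over all probe sets, 0 were called as reported, 14 without the dimmest 25%, 20 without the dimmest 50%, 11 with array weights, and 0 to 308 with 1 tumour left out, with calls only without control tumour 2. The 12 members whose groups did not overlap were 6 without the dimmest 50%, where 13 members were left, and 14 to 20 with 1 tumour left out, where fewer samples make separation easier (20 without IR-A tumour 3, 19 without control tumour 3). Over all probe sets 12.2% were then apart higher and 12.5% lower without the dimmest 50%, and 10.7% to 16.3% higher and 12.1% to 22.5% lower with 1 tumour left out. The 13 members at an unadjusted p under 0.05, a count added after the data were seen, were 6 without the dimmest 50% and 7 to 16 with 1 tumour left out, with 7 without control tumour 1 and 8 without control tumour 3. The gamma median of 0.29 was 0.50 without the dimmest 50%, where 8 gamma and no alpha genes were left, and 0.26 to 0.38 with 1 tumour left out. The beta median ran from 0.22 (without IR-A tumour 1) to 0.45, and the alpha median from -0.07 to 0.07. Among the 12 non-clustered protocadherins, 0 or 1 was called with 1 tumour left out, PCDH20 without control tumour 2. Of the 26 members named by rule, 22 kept the sign of their difference in all settings run on them, and PCDHA6, PCDHAC2, PCDHGA12 and PCDHGC5 did not. None of the 26 moved by more than the spread between tumours. The median of the non-clustered protocadherins, 0.01 as reported, did: it was 0.85 without the dimmest 50%, where 2 genes were left. With the replicate number as a block, which in this balanced design cannot change a difference, 0 members were called and 12 were at an unadjusted p under 0.05. Deviations of same-numbered tumours from their group means correlated at -0.29, -0.36 and 0.02, and those of the other pairs at -0.32 to 0.50. With so few tumours per group these values constrain each other, so they cannot show whether same-numbered tumours shared a batch.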
